A study of Homo sapiens with 12 samples.

Results

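The core circadian clock genes were taken as 10 protein-coding genes out of the 20098 in the annotation: the activators ARNTL (listed as BMAL1 in the annotation), CLOCK and NPAS2, the repressors CRY1, CRY2, PER1, PER2 and PER3, and the nuclear receptor genes NR1D1 and NR1D2. They were chosen by name, and every called region that overlapped a promoter (the stretch from 1 kb before to 100 bp after each annotated transcript start) or lay within 10 kb of one of the genes was collected from 6 lists of called regions. Chromatin immunoprecipitation sequencing had been performed in the triple-negative breast cancer line HCC70, treated for 24 h with vehicle or with XY018, an antagonist of the nuclear receptor RORγ. The sample labels give XY018 at 5 µM, whereas the study's methods state a lower dose. The antibodies were against SREBP2 (the transcription factor that drives cholesterol biosynthesis genes), against RORγ, and against H3K27ac, the acetylated histone mark of active promoters and enhancers. The vehicle and XY018 groups were otherwise grown alike in serum-containing medium, the labels name no clock-synchronising step, and each antibody and treatment had 1 library.

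In the mammalian clock, a heterodimer of ARNTL with CLOCK or NPAS2 binds E-box elements and activates the PER and CRY genes, whose products return to the nucleus and repress that heterodimer. In a second loop, receptors of the ROR family and the NR1D receptors (REV-ERB) compete for the same RORE elements at ARNTL and other genes, the RORs as activators and the NR1D receptors as repressors. Another element, the D-box, is bound by DBP, TEF and HLF as activators and by NFIL3 as a repressor. RORγ therefore has a known place in the clock, and the comparison asked what was bound at these genes in HCC70 cells and how the bound signal differed after the antagonist.

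The letters of 3 clock elements were found at members' promoters on hg19, and the matches printed here are among those set against called regions in the results. The search covered both strands for the E-box (CACGTG), the RORE core (TAGGTCA or TGGGTCA), the D-box (TTATGTAA or TTACGTAA) and the sterol element SRE (TCACNCCAC), in the promoter of the canonical transcript. The E-box and the second D-box form read the same on both strands, and no printed match overlaps another motif. Sequences are given 5′ to 3′ along the gene's own strand with the motif in capitals, and windows that overlap an annotated untranslated region were kept short.
ARNTL RORE core, chr11:13299357-13299383, plus strand: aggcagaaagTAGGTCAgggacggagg
NPAS2 RORE core on the opposite strand, chr2:101435789-101435849, plus strand: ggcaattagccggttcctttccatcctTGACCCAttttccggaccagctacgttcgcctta
CRY2 RORE core, chr11:45868951-45868977, plus strand: tgcggcgtcaTAGGTCActgggcgggc
PER1 E-box, chr17:8055863-8055922, minus strand: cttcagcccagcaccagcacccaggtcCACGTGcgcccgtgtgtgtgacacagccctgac
PER2 D-box, chr2:239197237-239197264, minus strand: ccgctgcggcTTACGTAAccgccgccgg
PER3 E-box, chr1:7843954-7844013, plus strand: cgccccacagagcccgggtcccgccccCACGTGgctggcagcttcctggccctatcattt
NR1D1 E-box, chr17:38257274-38257333, minus strand: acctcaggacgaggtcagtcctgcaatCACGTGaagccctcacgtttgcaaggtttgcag
NR1D2 RORE core on the opposite strand, chr3:23986400-23986460, plus strand: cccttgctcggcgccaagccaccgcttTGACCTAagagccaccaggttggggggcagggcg

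The E-box letters were present at 6 of the 10 members (NPAS2, PER1, PER2, PER3, NR1D1 and NR1D2), beside 19.6% of 19819 protein-coding promoters of the same length. The RORE core was present at 5 members (ARNTL, NPAS2, CRY2, PER3 and NR1D2), beside 18.3% of promoters. The D-box was present at PER2 and PER3, beside 3.81% of promoters, and the SRE at none of the 10, beside 6.11%. CLOCK and CRY1 held none of the letters in this window. A match of letters is a description of the reference sequence and not of binding.

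The lists give no read totals, so depth was taken from their local backgrounds. The genome-wide background was 0.712 to 1.21 fragments deep, or 3.65 to 6.16 tags per kb. The SREBP2 libraries stood apart as a pair, since 117441 regions were called with vehicle and 69700 with XY018. Of the promoters with a SREBP2 region in both libraries, 98% had a lower summit with XY018 once each summit was divided by its library's background. Promoters of all 5 epithelial marker genes examined had H3K27ac regions of 68 to 302 fragments. Of the luminal markers, GATA3 had 189 fragments with vehicle and 204 with XY018, FOXA1 225 and 250, ESR1 10 and 13, and PGR had no region. Of the basal markers, EGFR had 231 and 255 fragments, KRT5 33 and 22, KRT17 8 and 18, TP63 16 with vehicle only, and KRT14 had no region. Among markers of other cell types, PTPRC, CD3E and PDGFRB had no H3K27ac promoter region in either library, CDH5 had 12 and 12 fragments, and COL1A1 had 110 and 142. Their part in the clock gene values was not tested. In the following, "fragments" are the whole fragments stacked at a region's summit, and a ratio is the XY018 summit over the vehicle summit after each was divided by its library's genome-wide background. The 95% intervals cover counting error only, and with 1 library per group no value has a replicate check and no p-value was computed. A ratio of at least 1.5 was called higher and one of at most its inverse, 0.667, lower.

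Most clock gene promoters carried called regions of both transcription factors, and all carried H3K27ac. A SREBP2 promoter region was called at 9 of 10 members with vehicle (70.6% of all protein-coding genes) and at 9 with XY018 (62.7%). A RORγ promoter region was called at 9 members with vehicle (62.6%) and at 8 with XY018 (61.5%). Both factors were called at 9 members with vehicle (60.2%) and at 8 with XY018 (57.5%), and NR1D1 was the member with neither. At q of at most 0.01 CRY1 was called in neither RORγ list. The counts for RORγ and for both factors were then 8 in each treatment. H3K27ac was called at all 10 members with vehicle (66.8%) and with XY018 (68%). The vehicle promoter region was overlapped by an XY018 region of the same antibody at 9 of 9 members for SREBP2 (88.2% of called promoters), at 8 of 9 for RORγ (91.1%) and at 10 of 10 for H3K27ac (96.6%). The members have more annotated starts than most genes, with a median of 5841.5 bp of promoter against 2919.5 bp over all genes. With the canonical start alone the vehicle and XY018 counts were 9 and 9 for SREBP2, 9 and 8 for RORγ, and 10 and 9 for H3K27ac. The shares in this paragraph cover all annotated starts, so they are not a like comparison for the canonical-start counts.

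Against vehicle, the antibodies moved in different directions at these promoters. The SREBP2 ratio was below 1 at all 9 members with a pair of overlapping regions (98% of all promoters), with a median of 0.677 beside 0.621 over all promoters. The RORγ ratio was below 1 at 5 of 8 members (55.3%), or 7 of 8 with no scaling, with a median of 0.885 beside 0.967. The H3K27ac ratio was above 1 at 9 of 10 members, with PER1 as the exception (19.6% of all promoters were below 1), and the median was 1.54 beside 1.27. With promoters of 5 kb to each side all 10 were above 1. PER1 was then 1.36, from another pair of regions that the wider window took in. By size, 4 members were called lower for SREBP2 (62.3%), 2 lower for RORγ (9.56%) and 6 higher for H3K27ac (22.6%), and no member was called higher for SREBP2 (0.0567%) or RORγ (7.32%), nor lower for H3K27ac (3.08%). These counts depend on the scaling: 2 members were called lower for SREBP2 with tags per kb, and with no scaling 1 was lower for SREBP2, 3 lower for RORγ and 1 higher for H3K27ac. The counting interval lay below 1 at 1 member for SREBP2 (36.8%), at none with tags per kb or with no scaling, and above 1 at 5 members for H3K27ac (36.1%). It lay below 1 at no member for H3K27ac (1.93%), and for RORγ at no member below (1.65%) or above 1 (1.13%).

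Relative to the median promoter of the same antibody, the members' median SREBP2 ratio was 1.09 times as high. Their median RORγ ratio was 0.915 times and their median H3K27ac ratio 1.21 times that of the median promoter. These relative values do not depend on the scaling between the libraries. Scaling by tags per kb in place of background depth shifted the median promoter by 0.15 on the log2 scale for SREBP2 and left the other antibodies in place. With no scaling it shifted by 0.24, −0.14 and −0.13 for SREBP2, RORγ and H3K27ac. Against the median promoter, 7 of 9 members stood above it for SREBP2, 4 of 8 for RORγ and 8 of 10 for H3K27ac.

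**Figure D1:**
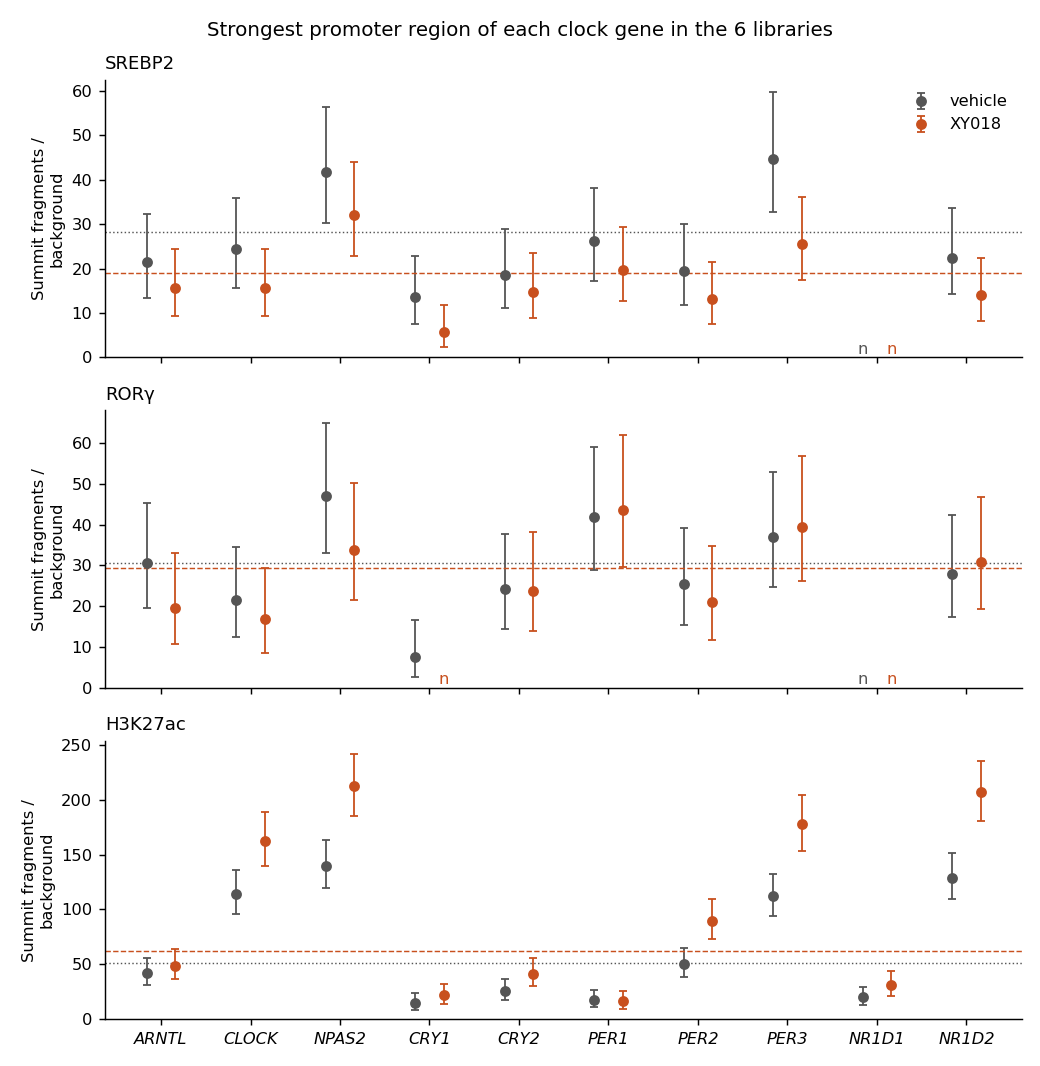
Strongest promoter region of each clock gene in the 6 libraries, as summit fragments over the genome-wide background (y axis, linear); bars are exact Poisson 95% intervals, n marks a promoter with no called region, and the dotted and dashed lines are the medians of all called promoters with vehicle and XY018. CLOCK, NPAS2, PER3 and NR1D2 stand above the other members for H3K27ac, and NR1D1 has no SREBP2 or RORγ region.

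**Figure D2:**
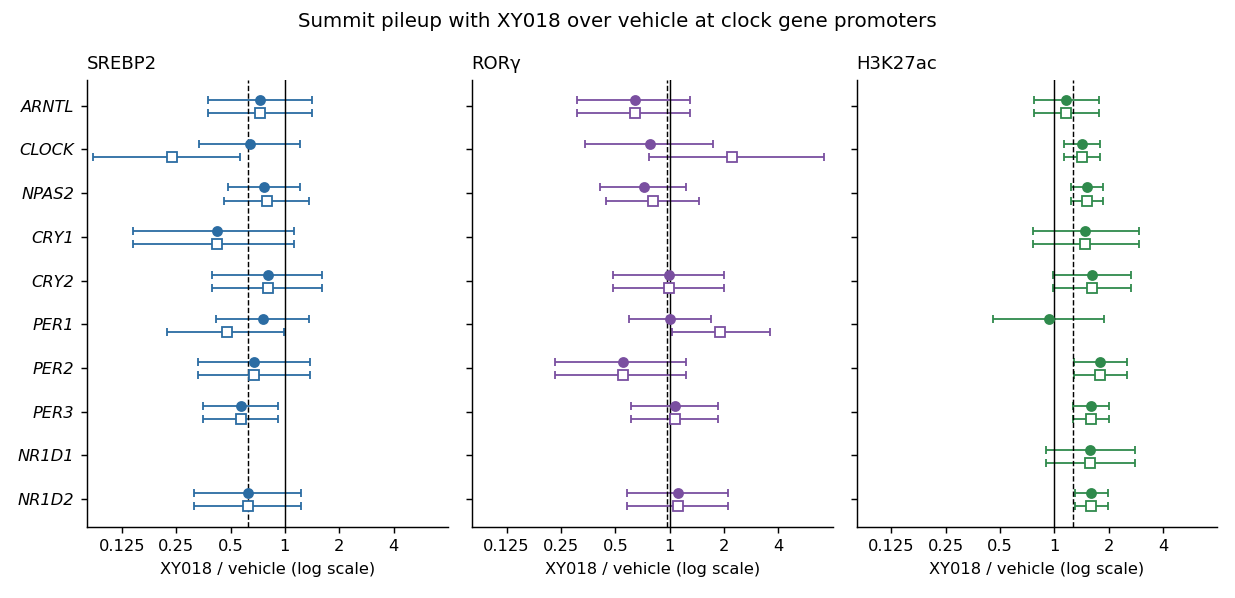
XY018 to vehicle ratio of summit pileup at each clock gene promoter (x axis, log scale) with counting 95% intervals; filled circles are the strongest pair of regions at any annotated start, open squares the strongest pair at the canonical start, and the dashed line is the median of all promoters. SREBP2 ratios lie between 0.423 and 0.802 for the circles, and for the circles H3K27ac ratios lie above 1 except at PER1. With promoters of 5 kb to each side, another pair of regions gave 1.36 at PER1.

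Among the activators, ARNTL encodes the obligate partner of the heterodimer and carries the best known RORE elements of the clock. Its SREBP2 summit was 22 fragments with vehicle (95% interval 13.8 to 33.3, chr11:13299194-13299811) and 19 with XY018 (11.4 to 29.7, chr11:13299353-13299859). The ratio was 0.731 (0.374 to 1.42), and the fragment intervals overlapped. RORγ at the same place was 24 fragments with vehicle (15.4 to 35.7) and 14 with XY018 (7.65 to 23.5). Its ratio of 0.645 (0.308 to 1.3) was called lower by size but the interval held 1, and 7.49% of all promoters had a lower RORγ ratio. The RORE core printed for ARNTL, 33 bp downstream of the canonical start in an untranslated region, lay inside the region of all 4 factor lists, 114 to 214 bp from the summits. H3K27ac was 49 fragments with vehicle and 52 with XY018, a ratio of 1.16 (0.772 to 1.75) that was smaller than at the median promoter. A further pair of regions lay in the first intron, with SREBP2 summits at 807 and 873 bp downstream of the start and 15 fragments in each treatment. RORγ had an intronic region there of 16 fragments with vehicle, while the XY018 region of the promoter ran across it as 1 call of 1312 bp.

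CLOCK encodes the histone acetyltransferase partner of ARNTL and was one of the strongly acetylated members. Its H3K27ac region held 134 fragments with vehicle (112 to 159, chr4:56411754-56413516) and 174 with XY018 (149 to 202, chr4:56411747-56413420), a ratio of 1.42 (1.13 to 1.8). The XY018 value was higher than at 85.5% of called promoters. The factors gave less signal, with SREBP2 at 25 and 19 fragments (ratio 0.644, 0.335 to 1.22) and RORγ at 17 and 12 (ratio 0.78, 0.34 to 1.73). These summits lay up to 852 bp into the gene, and CLOCK has several starts there. At the canonical start alone the pairing differed: SREBP2 was 25 against 7 fragments (0.237, 0.0866 to 0.564) because the vehicle call spanned both places and the XY018 library had 2 separate regions. RORγ at the canonical start was 6 against 12 fragments (2.21, 0.768 to 7.18). Across the choice of start the SREBP2 ratio thus stayed below 1 but differed in size. The RORγ ratio changed sides, with intervals that held 1 for both choices.

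NPAS2, the paralogue of CLOCK, had the highest H3K27ac summits of the 10 members. The region at the main promoter held 164 fragments with vehicle (140 to 191, chr2:101434847-101437895) and 227 with XY018 (198 to 259, chr2:101434854-101437734), a ratio of 1.52 (1.23 to 1.87). The XY018 value was higher than at 94.3% of called promoters. SREBP2 at that promoter was 31 and 29 fragments (0.792, 0.461 to 1.36) and RORγ was 30 and 22 (0.811, 0.446 to 1.45). A small RORγ region of 6 fragments, called with vehicle only at chr2:101435747-101436061, had its summit 2 bp from the RORE core printed for NPAS2.

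The strongest factor regions of NPAS2 were not at the main promoter but at an alternative start near the end of the gene. There, 173348 to 173372 bp downstream of the canonical start, all 6 libraries had a narrow region (chr2:101609769-101610118 for SREBP2 with vehicle). SREBP2 held 43 fragments with vehicle and 39 with XY018, a ratio of 0.768 (0.485 to 1.21). RORγ held 37 and 24, a ratio of 0.717 (0.41 to 1.23). H3K27ac held 37 and 36 fragments there. The regions were 297 to 470 bp wide in all lists, against a width of 3049 bp for the vehicle H3K27ac region of the main promoter. No list of excluded genome regions was used here, so whether this place lies in one was not tested.

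CRY1, a core repressor, was the weakest of the members with factor regions. SREBP2 was 14 fragments with vehicle (7.65 to 23.5, chr12:107486935-107487428) and 7 with XY018 (2.81 to 14.4, chr12:107486982-107487389). The ratio of 0.423 (0.145 to 1.12) was the lowest of the members, 7.71% of all promoters had a lower one, and the interval held 1. The RORγ region had 6 fragments with vehicle, and no RORγ region was called at any CRY1 start with XY018. With lists that begin at 3 fragments and a background under 1, a signal below the calling level at this promoter was not detectable at this depth. H3K27ac was 17 and 23 fragments (1.48, 0.758 to 2.96).

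CRY2, the second cryptochrome, had a RORγ summit that stood at 19 fragments with vehicle and 17 with XY018, a ratio of 0.989 (0.483 to 2.01). SREBP2 was 19 and 18 fragments (0.802, 0.397 to 1.61), the highest SREBP2 ratio of the members. H3K27ac was 30 fragments with vehicle (20.2 to 42.8, chr11:45868922-45869558) and 44 with XY018 (32 to 59.1), called higher by size at 1.61 (0.988 to 2.65) with an interval that just held 1. The RORE core printed for CRY2, at −62 bp from the canonical start, lay within both SREBP2 regions and the vehicle RORγ region. It lay 63 bp from the vehicle SREBP2 summit, and outside the narrower RORγ region called with XY018, which began at position 45869038.

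PER1, an immediate-early repressor of the clock, was the member with the most promoter regions and had the lowest H3K27ac summit with XY018. Counting all 5 of its promoter windows, SREBP2 had 7 regions with vehicle and 4 with XY018, RORγ had 5 and 5, and H3K27ac had 3 and 2. The strongest vehicle summits of both factors lay inside the gene. SREBP2 was 27 and 24 fragments at 1117 and 1094 bp (0.753, 0.416 to 1.36), and RORγ was 33 and 30 at 1082 and 1084 bp (1, 0.592 to 1.7). H3K27ac at its strongest PER1 promoter region, with summits 9116 and 8657 bp into the gene, was 20 and 17 fragments (0.931, 0.458 to 1.87).

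At the canonical PER1 start itself, the ratios of the factors lay on opposite sides of 1. SREBP2 was 23 fragments with vehicle (14.6 to 34.5, chr17:8055438-8055937) and 13 with XY018 (6.92 to 22.2, chr17:8055393-8055947), a ratio of 0.479 (0.223 to 0.985). RORγ was 18 fragments with vehicle (10.7 to 28.4, chr17:8055419-8056339) and 31 with XY018 (21.1 to 44, chr17:8055484-8055880), a ratio of 1.9 (1.03 to 3.61). With no scaling both intervals held 1, at 0.565 (0.263 to 1.16) and 1.72 (0.934 to 3.27), and the difference between the antibodies was not tested. The E-box printed for PER1, at −170 bp, lay in both SREBP2 regions and in the vehicle RORγ region, and 219 bp from the XY018 RORγ summit. A RORE core downstream of the canonical promoter (chr17:8055461-8055467) lay in the same regions, both of SREBP2 and the vehicle one of RORγ. H3K27ac here was 11 fragments with vehicle, and no region touched the canonical promoter with XY018.

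PER2, whose product is the rate-limiting repressor of the loop, had a pair of factor regions, one at the start and one upstream of it. The RORγ region further upstream was 20 fragments with vehicle (12.2 to 30.9, chr2:239197627-239198073) and 10 with XY018 (4.8 to 18.4, chr2:239197669-239198089), with summits at −554 and −590 bp. Its ratio of 0.553 (0.231 to 1.24) was the lowest RORγ ratio of the members, and 3.14% of all promoters had a lower one. The RORγ region at the start itself was 13 and 15 fragments, so the called lower value came from the upstream region of the pair alone. The D-box printed for PER2 sits at the start, inside this region in both RORγ lists and in both SREBP2 lists, 7 bp from the vehicle RORγ summit. SREBP2 at the start was 20 and 16 fragments (0.677, 0.328 to 1.38).

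PER2 also had the highest H3K27ac ratio of the members. The summit was 59 fragments with vehicle (44.9 to 76.1, chr2:239196764-239197530) and 96 with XY018 (77.8 to 117, chr2:239196765-239198056), a ratio of 1.78 (1.28 to 2.51). The fragment intervals did not overlap, and 93.5% of all promoters had a lower ratio. The vehicle list had 2 separate regions, of 59 and 51 fragments, where the XY018 list had 1 region of 1292 bp across both.

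PER3, the third period gene, had the strongest SREBP2 summit of the members at a canonical promoter. It was 46 fragments with vehicle (33.7 to 61.4, chr1:7843436-7845062) and 31 with XY018 (21.1 to 44, chr1:7843951-7844707), a ratio of 0.571 (0.35 to 0.92). This was the 1 SREBP2 ratio of a strongest pair whose interval lay below 1, and 36.2% of all promoters had a lower ratio. Scaled by tags per kb it was 0.632 (0.388 to 1.02), and with no scaling 0.674 (0.413 to 1.09). RORγ was 29 and 28 fragments (1.07, 0.612 to 1.86). H3K27ac was 131 fragments with vehicle (110 to 155) and 190 with XY018 (164 to 219), a ratio of 1.59 (1.27 to 2), or 1.13 from the deposited fold. The E-box printed for PER3, at −368 bp, lay in both SREBP2 regions and in the XY018 RORγ region, 374 to 609 bp from the nearest summit of each factor list. A RORE core at −844 bp lay inside a separate SREBP2 region of 12 fragments called with XY018, 54 bp from its summit, and inside a RORγ region of 8 fragments called with vehicle, 102 bp from its summit. The wide vehicle SREBP2 region also covered this core, 1085 bp from its summit.

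NR1D1 encodes REV-ERBα, the repressor that competes with the RORs, and stood apart from the other 9 members in having no SREBP2 or RORγ promoter region in either treatment. An H3K27ac promoter region with neither factor was found at 7.46% of all genes with vehicle. NR1D1 has 1 annotated transcript and hence the shortest promoter searched, 1101 bp. With promoters of 5 kb to each side, NR1D1 had a SREBP2 region with vehicle, but none with XY018 and no RORγ region in either treatment. Its H3K27ac summit was 23 fragments with vehicle (14.6 to 34.5, chr17:38256238-38256795) and 33 with XY018 (22.7 to 46.3, chr17:38255729-38256889), a ratio of 1.57 (0.895 to 2.8) called higher by size with an interval that held 1. The signal was low for a called promoter: the vehicle value exceeded 19.5% of called promoters and the XY018 value 29.6%. The E-box printed for NR1D1, at −461 bp, was in no SREBP2 or RORγ region.

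The nearest factor region upstream of NR1D1 lay outside protein-coding genes. SREBP2 held 10 fragments there with vehicle (summit at −7780 bp, chr17:38264373-38264766) and 12 with XY018 (−7809 bp, chr17:38264470-38264809). RORγ held 8 fragments with vehicle and had no call with XY018, and H3K27ac held 17 and 11. Inside the gene, 2 SREBP2 regions of 7 and 9 fragments in coding exons were called with vehicle only. H3K27ac within the first intron differed more than at the promoter, with 15 fragments with vehicle at 1793 bp and 32 with XY018 at 1732 bp. A region of 22 fragments over a coding exon at 3330 bp was called with XY018 only.

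NR1D2, which encodes REV-ERBβ, had all 3 marks. RORγ held 22 fragments in each treatment (chr3:23986848-23987882 with vehicle, chr3:23986565-23987561 with XY018), which after scaling gave the highest RORγ ratio of the members, 1.11 (0.584 to 2.09). SREBP2 was 23 and 17 fragments (0.626, 0.314 to 1.22), called lower by size. H3K27ac was 151 fragments with vehicle (128 to 177) and 221 with XY018 (193 to 252), a ratio of 1.6 (1.3 to 1.99), in a region that also covered the promoter of the neighbouring gene NKIRAS1. The RORE core printed for NR1D2, at −347 bp, was inside the vehicle SREBP2 region only of the 4 factor lists, 698 bp from its summit. A further RORE core (TGGGTCA, chr3:23987479-23987485), downstream of the canonical promoter, lay inside the region of all 4 factor lists. It was 325 bp from the vehicle RORγ summit and 354 bp from the vehicle SREBP2 summit, and 459 and 534 bp from those with XY018.

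**Figure D3:**
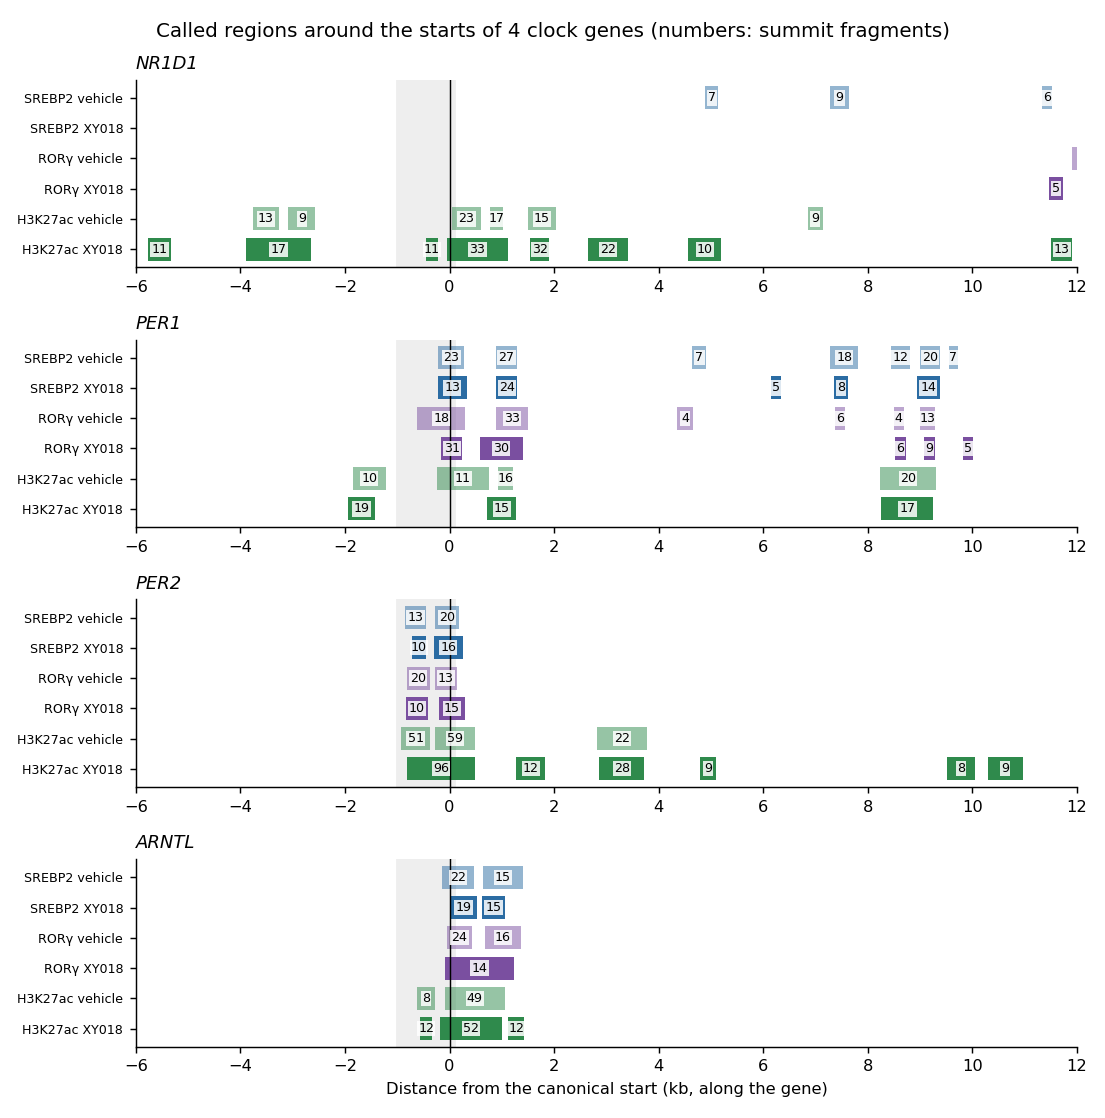
Called regions around the canonical starts of NR1D1, PER1, PER2 and ARNTL, with distance along the gene in kb on the x axis and 1 row per library; paler bars are vehicle, darker bars XY018, the grey band is the canonical promoter and the numbers are summit fragments. NR1D1 has H3K27ac regions only near its start, PER1 has a 13 against 23 SREBP2 pair and a 31 against 18 RORγ pair at the start, and the PER2 H3K27ac regions of 51 and 59 fragments correspond to 1 region of 96.

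Motif letters were also searched within 100 bp of the summits of factor regions at promoters. For RORγ with vehicle, 2 of 18 member regions (at CLOCK and NPAS2) held a RORE core, beside 2.25% of 20628 promoter regions of all protein-coding genes, and with XY018 none of 14 did, beside 2.42%. An E-box lay at 1 of the 18 vehicle RORγ regions (NPAS2, beside 4.96%) and at none of the 19 and 16 SREBP2 regions with vehicle and XY018 (5.4% and 5.36%). SREBP2 regions with vehicle held a RORE core near the summit at 4 of 19, from CLOCK, CRY2 and PER1, beside 2.33%, and with XY018 at 1 of 16, from PER3, beside 2.01%. The CLOCK core also lay inside the XY018 SREBP2 and RORγ regions, at −252 and −686 bp from their summits in genome coordinates. The CRY2 core near the start lay in the XY018 SREBP2 region at −138 bp. The PER1 core lay −22 bp from an XY018 SREBP2 summit of 8 fragments, in a region outside the promoter windows. The cores of NPAS2 and of the further CRY2 region lay in no XY018 region of the same factor. An SRE lay near the summit of a PER1 region far inside the gene, in the vehicle SREBP2 list (12 fragments, summit at 8548 bp) and in both RORγ lists (4 and 6 fragments).

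**Figure D4:**
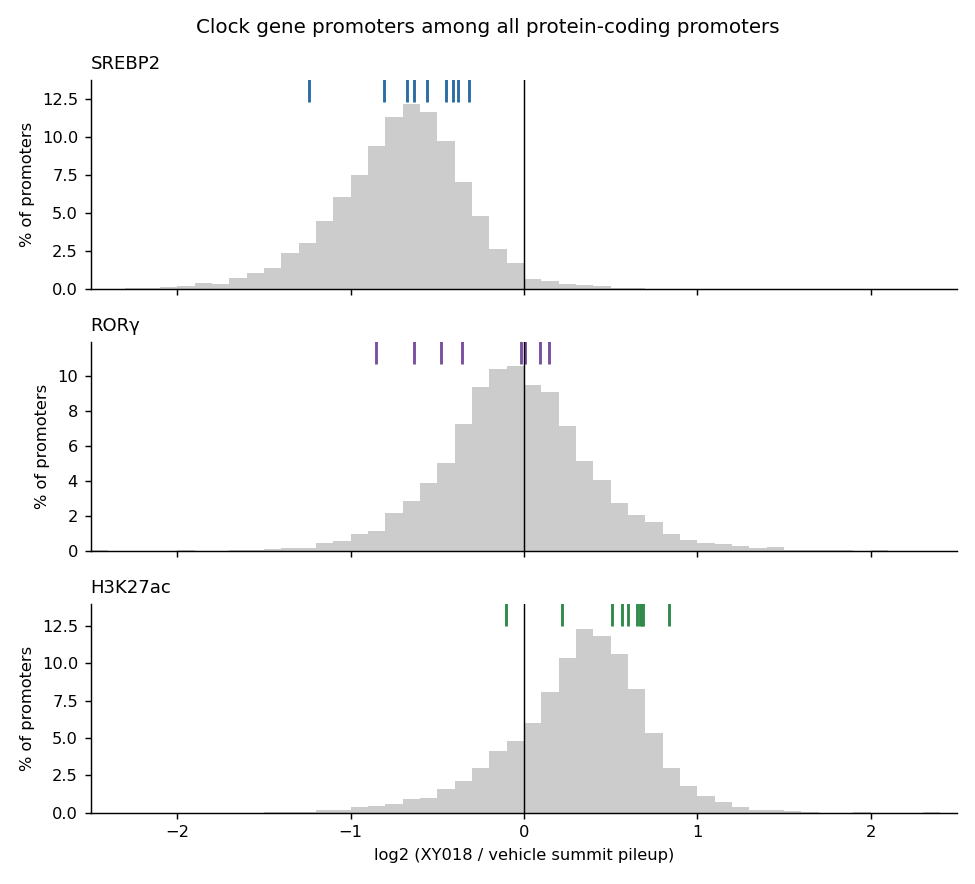
Distribution of the log2 XY018 to vehicle ratio of summit pileup over all protein-coding promoters with a region in both libraries (grey bars, percent of promoters), with each clock gene as a coloured tick. The ticks lie within the grey distribution for every antibody, 8 of 10 above the median promoter for H3K27ac.

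Over the whole loci, 910.74 kb from 10 kb upstream to 10 kb downstream of the 10 genes, fewer factor regions and more H3K27ac regions were called with XY018 in the lists as deposited. SREBP2 regions numbered 51 with vehicle and 33 with XY018, RORγ regions 56 and 28, and H3K27ac regions 67 and 79. With the 2 lists of each antibody trimmed to equal length, SREBP2 regions numbered 30 and 33, so the direction turned. At q of at most 1e-05 they numbered 26 and 20, and RORγ regions 17 and 16. Of the vehicle regions, 47.1% for SREBP2, 39.3% for RORγ and 73.1% for H3K27ac were overlapped by an XY018 region, beside 39.8%, 36.4% and 69.3% over the whole lists. The whole lists were also shorter with XY018 for both factors, 69700 against 117441 regions for SREBP2 and 129954 against 167264 for RORγ. The difference at the loci was mostly outside promoters: SREBP2 went from 32 to 17 such regions and RORγ from 38 to 14, whereas promoter regions went from 19 to 16 and from 18 to 14. The whole lists also shortened mostly outside promoters. Regions in promoters of all protein-coding genes went from 23204 to 18430 for SREBP2 and from 20628 to 19855 for RORγ. At the loci, the vehicle regions outside promoters were weak, with a median of 7 fragments for SREBP2 and 6 for RORγ, against 20 and 17.5 in promoters.

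By gene, NPAS2 had the longest locus, 196.691 kb, and the most H3K27ac regions, 21 with vehicle and 28 with XY018. Most of these were intronic, the strongest intronic one at 23 and 21 fragments. The SREBP2 regions of NPAS2 numbered 10 and 4, and its RORγ regions 7 and 4. The most RORγ regions, 9 and 6, were at PER1, in 36.035 kb. NR1D1 had 7 and 11 H3K27ac regions in 27.797 kb. H3K27ac regions were fewer with XY018 at CLOCK (7 and 3), CRY1 (4 and 2) and PER1 (8 and 7), and the RORγ regions of CLOCK numbered 6 and 1. For RORγ, CRY1 and NR1D1 had no vehicle region that was overlapped with XY018, out of 3 and 4 regions. PER2 had 7 and 8 SREBP2 regions and was the 1 member with more SREBP2 regions after XY018.

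The strongest regions outside the members' own promoters belonged in most cases to neighbouring genes. The HES6 promoter, downstream of PER2, held 35 and 23 SREBP2 fragments, vehicle before XY018, 32 and 17 for RORγ and 33 and 62 for H3K27ac. The VAMP2 region upstream of PER1 held 26 and 23 SREBP2 fragments, 25 and 23 for RORγ and 115 and 151 for H3K27ac. The MAPK8IP1 promoter downstream of CRY2 held 34 and 39 SREBP2 fragments and 37 and 36 for RORγ. These counts are part of the locus totals by the distance rule and are not assigned to the clock genes.

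One of the strongest factor regions in the loci lay inside PER3, at the start of a non-coding gene within it, 43000 bp downstream of the PER3 start for both factors with vehicle. SREBP2 held 54 fragments with vehicle (chr1:7887126-7887585) and 50 with XY018 (chr1:7887161-7887652). RORγ held 44 (chr1:7887104-7887527) and 32 (chr1:7887020-7887557). H3K27ac was weak in comparison, at 19 and 20 fragments. As at the NPAS2 alternative start, the region was narrow and called in all 6 libraries, and whether it lies in a list of excluded genome regions was not tested.

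**Figure D5:**
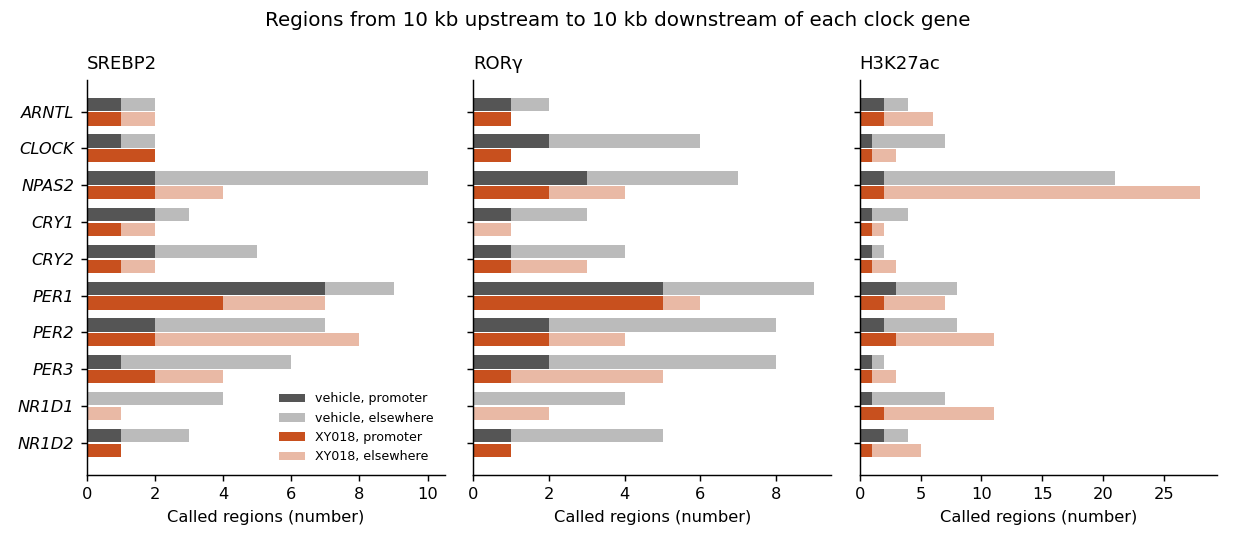
Number of called regions from 10 kb upstream to 10 kb downstream of each clock gene (x axis), with vehicle in grey and XY018 in orange; darker bar parts are regions in the gene's own promoters and paler parts all others. The paler parts shrink with XY018 for SREBP2 and RORγ at most genes, 32 to 17 and 38 to 14 in total.

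A list of 18 other clock genes, of which 17 are protein-coding, gave a comparison among genes of related function. SREBP2 promoter regions were called at 16 of the 17 with vehicle (70.6% of all protein-coding genes) and 14 with XY018 (62.7%). RORγ regions were called at 14 in each treatment (62.6% and 61.5%), and H3K27ac regions at 14 and 16 (66.8% and 68%). Their median SREBP2 ratio was 0.591, their median RORγ ratio 0.94 and their median H3K27ac ratio 1.38. Each lay on the same side of 1 as for the members, and also as over all promoters (0.621, 0.967 and 1.27). SREBP2 was called lower at 10 of 14 with a pair (62.3% of all promoters), RORγ lower at none (9.56%), and H3K27ac higher at 6 of 14 (22.6%). The SREBP2 ratios ran from 0.401 at BHLHE41 (19 and 9 fragments), a repressor of the ARNTL heterodimer, to 0.887 at HLF. The RORγ ratios ran from 0.674 at DBP (41 and 25 fragments), a D-box activator, to 1.66 at BHLHE40 (8 and 12 fragments).

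RORA, a ROR gene that activates through the RORE, had the highest H3K27ac ratio of a strongest pair on the list, 2.67 (1.46 to 5.12), and TIMELESS the lowest, 0.983. The RORA pair, of 16 and 39 fragments, lay at an internal start with its vehicle summit 636914 bp downstream of the canonical one, where RORA had no H3K27ac pair. With the canonical start only, DBP had the highest ratio, 9.24, from 23 and 194 fragments, whereas its strongest pair, of 164 and 194 fragments, gave 1.3. RORB had no H3K27ac promoter region in either treatment. CIART, a clock repressor, had no region of either factor, as NR1D1 did, and no H3K27ac with vehicle. HLF also had no H3K27ac region with vehicle, and TIMELESS no RORγ region.

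In level across the 6 libraries, the protein-coding promoters most like ARNTL were those of SCLY, MRS2 and HECW2, at a root mean square difference of 0.08, 0.14 and 0.16 on the log2 scale, out of 9303 promoters with a region in every library. NR1D1 could be compared over the 2 H3K27ac libraries only, where 6 of 12978 promoters had the same fragment numbers, ITPRIPL1, PAPSS1 and DOCK4 among them. For reference, H3K27ac at the housekeeping promoters of ACTB and GAPDH was 291 and 328 (1.23, 1.05 to 1.45) and 205 and 220 fragments (1.18, 0.968 to 1.43). Their SREBP2 ratios were 0.818 and 0.958. The members' GC content in the canonical promoter ranged from 54.6% at CRY2 to 72.8% at PER3, beside a median of 54.7% over all promoters.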

How the data were processed

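Chromatin immunoprecipitation sequencing of HCC70 cells gave 6 immunoprecipitated libraries, 1 per antibody and treatment, and 6 input libraries that were not used here. Per the labels, Bowtie2, MACS2 2.1.0 and bedtools were used on hg19, whereas the study's methods name BWA as the aligner and unique, deduplicated tags. Each deposited list held the regions of 1 library. The fold enrichment at the summit, (pileup + 1) over (local background + 1), was computed by the authors, as were the deposited −log10 p and −log10 q. The deposited display score was not used. The H3K27ac lists hold part of longer call sets, with region numbers up to 245055.

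From fold and −log10 p, the whole fragments at each summit and the local background were recovered (whole in 99.9991% to 100% of regions, within 0.001 in −log10 p). The recovery was tested on simulated data. The most frequent local background served as library depth. Genes and starts came from GENCODE 44 lifted to GRCh37, on chromosomes 1 to 22 and X. At each promoter, the overlapping pair of regions (at least 1 bp) with the most fragments was compared. Fragments carry exact Poisson 95% intervals and ratios exact (Clopper-Pearson) intervals of the XY018 share. Alternatives were q of 0.01 and 1e-05, promoters of 5 kb to each side, summits inside the promoter, protein-coding transcripts, equal list lengths, 50% overlap, other scalings, the deposited fold, and, chosen after seeing the data, the canonical start only. Members and lists were chosen with earlier results of these data known. All 10 members are named. Other clock genes are named where a ratio was lowest or highest, or where no promoter region was called. Values of 2 genes on these lists are not reported here. GAPDH and ACTB are reference promoters. The genes most like ARNTL and NR1D1 are the 3 with the smallest difference in log2 pileup. Python 3.11.15, pandas 2.3.3, scipy 1.17.1 and pysam 0.24.0 were used.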

Additional observations from a re-analysis of the deposited data

Results flagged for a closer look

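At the PER3 promoter, SREBP2 and H3K27ac ratios lay on opposite sides of 1. The SREBP2 pileup ratio of XY018 to vehicle was 0.571 and the H3K27ac ratio 1.59, and with scaling by background depth neither counting interval held 1. The SREBP2 interval held 1 when scaled by tags per kb (0.632, 0.388 to 1.02) and with no scaling (0.674, 0.413 to 1.09), and the H3K27ac ratio was 1.13 with the deposited fold. The difference between the antibodies was not tested, since each ratio comes from 1 library per treatment. Over all promoters the medians also lay on opposite sides of 1, at 0.621 and 1.27.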

How the results depend on the processing

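Of 119 alternative values of the counts and medians, 112 stayed close to the reported value by a wide rule. A count had to stay within 1.5 times the reported one. A median had to stay on its side of 1 and between the medians of the single members' lower and upper counting bounds. By this rule a fall from 8 to 6 members with both factors (XY018, summits inside the promoter) passed as unchanged. One median crossed 1: with the canonical start only, the RORγ median was 1.03. Locus counts moved by more than 1.5 times under q of 1e-05 (SREBP2 26 with vehicle and 20 with XY018, RORγ 17 and 16), under q of 0.01 (RORγ 33 with vehicle) and with lists of equal length (SREBP2 30 with vehicle, below the 33 with XY018). At q of 1e-05 the RORγ locus counts were thus nearly equal, whereas with lists of equal length they were 41 with vehicle and 28 with XY018. Of 188 alternative values of single ratios, 5 left their counting interval: at the canonical start CLOCK was 0.237 for SREBP2 and 2.21 for RORγ and PER1 was 1.9 for RORγ, and with the deposited fold H3K27ac was 1.13 at PER3 and 2.57 at NR1D2. Many of the 188 only repeat the reported value. Scaling by tags per kb equals scaling by background for RORγ and H3K27ac, and a q of 0.01 left every single ratio as it was. With no scaling, 1 member was called higher for H3K27ac in place of 6. No paired analysis was possible because each group had 1 library and the labels carry no shared replicate numbers, and for the same reason no replicate could be left out. Regions of 6 to 30 fragments allow only large ratios to be told from 1, and a promoter with no region can still hold signal below the calling level.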
